A study of Homo sapiens with 2 samples.

Results

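The regions described here hold SMARCA4 chromatin immunoprecipitation tags at the promoters of protein-coding genes. In them the parental library held more tags than the library of the EZH2 inhibitor-resistant (EIR) clone. A region was included when its nearest edge lay within 1 kb of the 5′ end of protein-coding genes on 1 strand only, with the 5′ end taken as the outermost base of the gene feature in GENCODE 44 on hg19 (GRCh37). Of 10792 regions of the parental-higher list, 3178 (29.4%) met this rule, and both lists together held 12896 regions. A further 289 parental-higher regions lay near coding 5′ ends on both strands, 635 lay near noncoding 5′ ends only, and 6690 had no gene 5′ end within 1 kb.

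Chromatin immunoprecipitation-sequencing (ChIP-seq) with an anti-FLAG antibody measured SMARCA4, also called BRG1, in TOV21G cells, an ovarian clear cell carcinoma line with *ARID1A* mutation. In both libraries the endogenous *SMARCA4* gene carried a FLAG tag, introduced by CRISPR, with puromycin selection and growth from single colonies, so neither library is of unmodified cells. The parental library came from cells without GSK126 selection. The EIR library came from 1 clone, numbered 3, picked after stepwise selection in the EZH2 inhibitor GSK126 at 5, 10, 15 and 20 μM. There was 1 library per condition, so that no spread between replicates or clones could be measured and a difference between these libraries cannot be told apart from a difference between clones or preparations. The parental library held 25638196 tags and the EIR library about 1.36 times as many, as recovered from the deposited values. EIR tags were scaled to the parental total, with 1 EIR tag worth 0.733. The authors called a region where its tags in the parental library exceeded those of the EIR library. That call set the libraries against each other and not against an input library. The tags and the fold are thus what selected every region. They are given as description, and intervals on folds cover counting error only.

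SMARCA4 is 1 of the mutually exclusive ATPase subunits of SWI/SNF complexes, which use ATP to slide or evict nucleosomes. At promoters these complexes keep a stretch of DNA open upstream of the first transcribed nucleosomes, so that transcription factors and RNA polymerase II can bind. Most broadly expressed genes start transcription in CpG-rich promoters, which often lack a TATA box. EZH2, the enzyme that GSK126 inhibits, places H3K27 methylation, and Polycomb and SWI/SNF complexes are known to oppose each other on chromatin.

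The promoters below show what the DNA at these 5′ ends looks like. They belong to the regions with the most parental tags (*TRIM8* and ENSG00000255872, a gene without a symbol that shares its promoter with *SHB*), to the 3 regions of largest fold that cover the 5′ end (*NAT8L*, *KCNH2* and *ZCCHC14*), and to the regions with the most tags that hold the letters of a TATA box (*PIEZO1*), NRF1 (*TBC1D24*), ETS (*SLC7A6*), CRE (*CDC14B*) and AP-1 (*TM9SF3*). Each line runs 5′ to 3′ along the gene's strand from 100 bases before the 5′ end through the first 30 bases of the gene feature. The letters were read from the GRCh37 reference. The *TRIM8* window lies wholly outside its region, which starts 96 bp downstream of the 5′ end. Its canonical transcript starts 1976 bp downstream of the 5′ end. The *KCNH2* region starts at the 5′ end, so the bases before it lie outside. Capitals mark matches on either strand to the letters CCAAT for the CCAAT box, to GGGCGG for the GC box, to GCATGCGC for NRF1, to CCGGAAG for ETS factors, to TGACGTCA for CRE, to TGANTCA for AP-1 and to ATGGCGG for YY1. On the gene's strand, 40 to 20 bases before the 5′ end, they also mark the letters TATAAA of the TATA box.
*TRIM8* (chr10:104402160-104402289, plus strand): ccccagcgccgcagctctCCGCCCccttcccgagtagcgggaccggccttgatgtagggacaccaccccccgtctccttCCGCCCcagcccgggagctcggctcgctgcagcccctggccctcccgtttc
ENSG00000255872 (chr9:38068655-38068784, minus strand): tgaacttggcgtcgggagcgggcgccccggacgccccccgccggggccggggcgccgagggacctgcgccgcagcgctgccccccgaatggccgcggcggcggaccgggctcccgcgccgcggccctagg
*NAT8L* (chr4:2060954-2061083, plus strand): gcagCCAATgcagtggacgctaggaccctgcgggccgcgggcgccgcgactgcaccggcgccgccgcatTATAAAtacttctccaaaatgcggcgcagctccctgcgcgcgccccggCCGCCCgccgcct
*KCNH2* (chr7:150675380-150675509, minus strand): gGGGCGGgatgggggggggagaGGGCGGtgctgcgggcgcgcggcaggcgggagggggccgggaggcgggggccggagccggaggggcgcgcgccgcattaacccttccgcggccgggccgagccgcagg
*ZCCHC14* (chr16:87526601-87526730, minus strand): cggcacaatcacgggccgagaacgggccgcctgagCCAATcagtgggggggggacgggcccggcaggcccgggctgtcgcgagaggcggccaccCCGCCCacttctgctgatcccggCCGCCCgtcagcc
*PIEZO1* (chr16:88851599-88851728, minus strand): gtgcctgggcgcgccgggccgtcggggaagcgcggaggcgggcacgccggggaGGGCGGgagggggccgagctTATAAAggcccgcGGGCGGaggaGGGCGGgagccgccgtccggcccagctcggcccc
*TBC1D24* (chr16:2524952-2525081, plus strand): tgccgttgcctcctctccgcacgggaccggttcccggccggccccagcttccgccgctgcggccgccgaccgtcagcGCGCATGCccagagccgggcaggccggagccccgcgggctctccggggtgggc
*SLC7A6* (chr16:68298319-68298448, plus strand): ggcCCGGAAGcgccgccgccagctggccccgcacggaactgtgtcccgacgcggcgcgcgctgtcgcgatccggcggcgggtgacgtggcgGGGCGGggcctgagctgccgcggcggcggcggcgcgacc
*CDC14B* (chr9:99382096-99382225, minus strand): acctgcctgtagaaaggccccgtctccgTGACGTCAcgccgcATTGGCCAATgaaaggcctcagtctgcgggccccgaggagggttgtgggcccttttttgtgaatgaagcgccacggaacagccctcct
*TM9SF3* (chr10:98347180-98347309, minus strand): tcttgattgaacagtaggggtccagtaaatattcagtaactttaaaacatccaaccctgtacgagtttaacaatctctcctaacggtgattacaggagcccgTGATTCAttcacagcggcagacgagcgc
All but 1 of these windows are GC-rich. The promoter of *TM9SF3* was the exception, with 44.6% GC against 61.5% in *CDC14B*, the next lowest, and 84.6% in *KCNH2*. The *NAT8L* and *PIEZO1* windows each hold a TATA box together with at least 1 GC box, and in *CDC14B* the CCAAT letters lie on both strands, side by side. A match is a description of the letters and not a measured binding site.

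Across the 3178 regions the parental library held a median of 52 tags per region and the EIR library 29 tags, or 21.3 after scaling. Parental tags ran from 15 to 297 and scaled EIR tags from 0 to 145. Per length, the medians were 67.5 parental tags per kb and 26.4 scaled EIR tags per kb. The median fold of parental over scaled EIR tags was 2.51 (95% interval of the median 2.48 to 2.55), and the 10th and 90th percentiles were 1.91 and 3.84. By the rule of selection every region was higher in the parental library, so no test was made of that direction. A fold of at least 2 was held by 2660 regions (83.7%), where 91.9% of all parental-higher regions reached it. A fold of at least 4 was held by 265 regions (8.34%), beside 11.9% of all parental-higher regions.

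**Figure D1:**
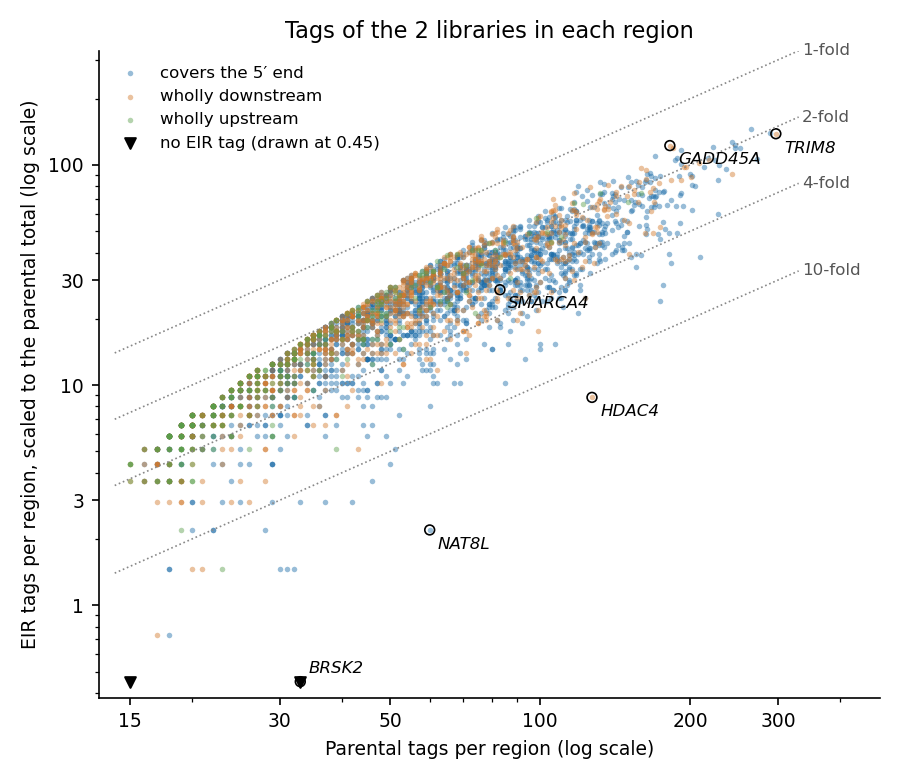
Parental tags (x axis, log scale) and EIR tags scaled to the parental total (y axis, log scale) of each region, 1 point per region, coloured by position relative to the 5′ end, with dotted lines of equal fold. Parental tags run from 15 to 297, the points lie under the 1-fold line because the list was selected that way, and *NAT8L*, *HDAC4* and *BRSK2* lie below the 10-fold line.

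The fold differed with the number of tags. The lowest fold fell from class to class, while the median fell to 2.29 at 40 to 59 parental tags and was 2.36 at 60 to 99. What set the medians was not tested. Regions of 15 to 24 parental tags had a median fold of 3.14 and none under 2.52, while regions of 100 tags or more had a median of 2.45 and a lowest value of 1.49. Set against the other 7614 parental-higher regions in the same tag class, the medians were 3.14 and 3.27 at 15 to 24 tags, 2.29 and 2.34 at 40 to 59 tags, and 2.45 and 2.23 at 100 tags or more. The lower median over all promoter regions, 2.51 against 3.03 where no gene 5′ end was near, thus went with more tags per promoter region (52 against 22).

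The region with the most parental tags lay at *TRIM8*, an E3 ubiquitin ligase gene, with 297 parental tags and 189 EIR tags (139 scaled), a fold of 2.14 (95% interval 1.78 to 2.59). The promoter that ENSG00000255872 shares with *SHB*, an SH2-domain adaptor gene, followed with 289 and 190 tags and a fold of 2.08. At *VAV2* there were 272 and 145 tags. These regions held many tags in both libraries. The lipid kinase gene *PIP4K2A* had the highest EIR level of all, 198 tags beside 265 parental tags, and a fold of 1.83. The forkhead factor gene *FOXO1* had 246 and 168 tags, and *ZBTB7A*, which encodes a zinc finger repressor, had 243 and 173. The folds of the 10 regions with the most tags ran from 1.83 at *PIP4K2A* to 2.66 at *MIDN* (242 and 124 tags) and their lengths from 1840 to 3568 bp. The 10 also included *PDLIM1* (252 and 162 tags), *PTPRM* (246 and 162) and *OTUD1* (236 and 131). The smallest fold of all, 1.49, was that of *GADD45A*, a DNA damage-inducible gene, with 182 parental and 167 EIR tags.

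The largest folds were at *NAT8L*, which encodes the enzyme that makes N-acetylaspartate in neurons, with 60 parental tags and 3 EIR tags, a fold of 27.3 (95% interval 8.90 to 136). The potassium channel gene *KCNH2* had 18 parental tags and 1 EIR tag, a fold of 24.6 (3.88 to 1023), and *MYRIP* had 17 and 1, a fold of 23.2 (3.63 to 969). These intervals are wide, since 1 to 3 EIR tags set the ratio. *HDAC4*, a class II histone deacetylase gene, was the only region of this group of 10 with over 100 parental tags, 127 beside 12 EIR tags, and its fold of 14.4 had a narrower interval of 7.98 to 28.7. *ZCCHC14* (32 and 2 tags), *TMEM132B* (31 and 2), *B4GALNT4* (30 and 2), *ADGRL1* (23 and 2) and *ONECUT3* (42 and 4) completed the group together with *BRSK2*. *BRSK2* had 33 parental tags and no EIR tag, which is at least 15.0-fold higher when 3 tags are taken as the limit that a count of 0 allows. *TFAP4*, with 15 parental tags, was the other region without an EIR tag, at least 6.82-fold higher. In all, 21 regions (0.661%) had a fold of at least 10, beside 60 of all 10792 parental-higher regions (0.556%).

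The largest folds were at regions rich in G and C. All 21 regions with a fold of at least 10 had a GC content of 74.4% or more, with a median of 80.4%, while the 518 regions with a fold under 2 had a median of 71.1%. Of the 101 regions with at least 80% GC, 50 (49.5%, 95% Wilson interval 39.95 to 59.1) had a fold of at least 4, against 19 of 743 (2.56%, 1.64 to 3.96) at 60 to 70% GC. The median levels were 54.8 parental and 13.96 scaled EIR tags per kb in the first class, and 70.9 and 30.8 in the second. Among regions with at least 40 parental tags the shares were 23 of 56 (41.1%) and 13 of 548 (2.37%). The share did not follow GC content over its whole range. Under 50% GC, 30 of 242 regions (12.4%) had a fold of at least 4, about the share at 75 to 80% GC (12.1%), and these regions held few tags, with a median of 25. With at least 40 parental tags, none of 31 regions under 50% GC had such a fold. Away from one-strand promoters the course was similar, with 830 of 5166 regions (16.1%, a median of 21 tags) under 50% GC, 104 of 1062 (9.79%) at 50 to 60%, 21 of 622 (3.38%) at 60 to 70% and 14 of 33 (42.4%) at 80% or more. The fold thus differed between GC classes in both sets, and the part of GC content and of tag number in the folds of single genes was not tested. Without regions of 75% GC or more, a choice made after seeing these values, the median fold was 2.43.

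**Figure D2:**
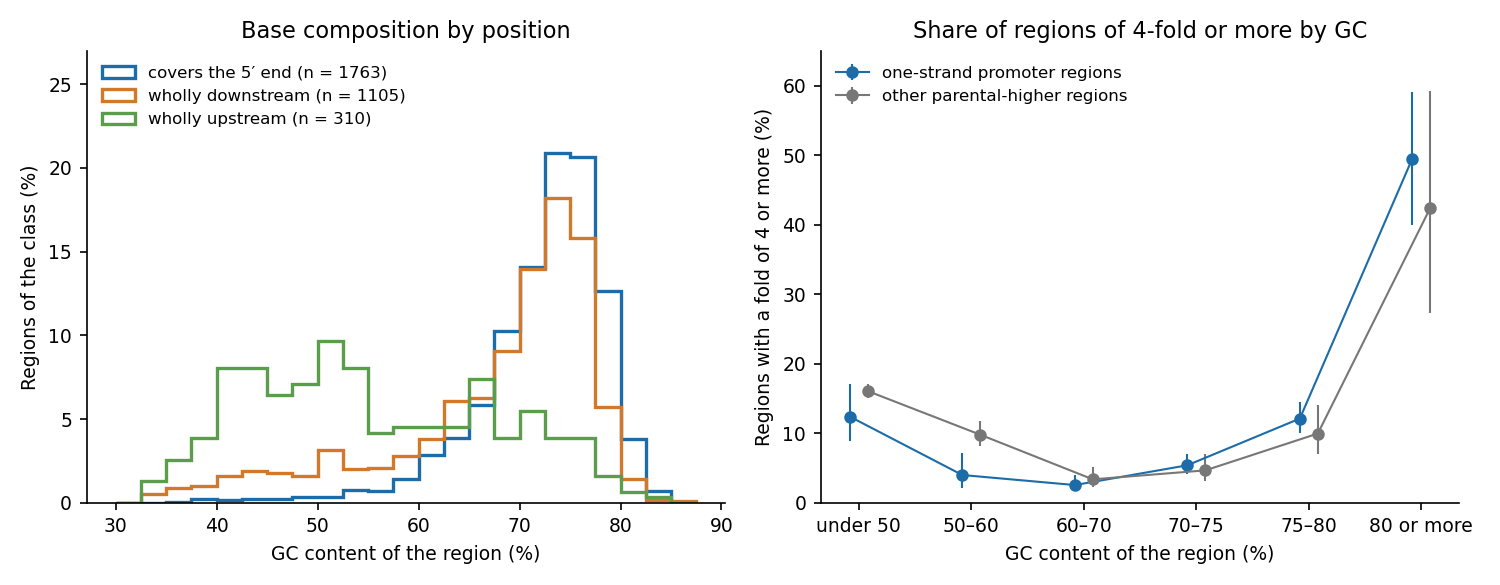
Left, distribution of GC content (x axis, %) of the regions by position, as a percent of each class (y axis). Right, share of regions with a fold of 4 or more (y axis, %, bars are 95% Wilson intervals) by GC class, for the one-strand promoter regions and for all other parental-higher regions: 12.4% and 16.1% under 50% GC, 2.56% and 3.38% at 60 to 70%, and 49.5% and 42.4% at 80% or more.

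The regions sat on and just downstream of the 5′ end. Of the 3178, 1763 (55.5%, 95% Wilson interval 53.7 to 57.2) covered it, 1105 (34.8%, 33.1 to 36.4) lay wholly downstream and 310 (9.75%, 8.77 to 10.8) wholly upstream. Downstream regions were thus 3.56 times as many as upstream ones. The genes lay on the plus strand for 1606 regions and on the minus strand for 1572. The median centre lay 282.5 bp downstream of the 5′ end, and 81.3% of the regions had their centre on the downstream side. Position by position, the share of regions covering a base rose from 15.9% at 500 bp upstream to 55.5% at the 5′ end, peaked at 67.2% at 325 bp downstream and was 60.4% at 500 bp and 27.8% at 1000 bp downstream.

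**Figure D3:**
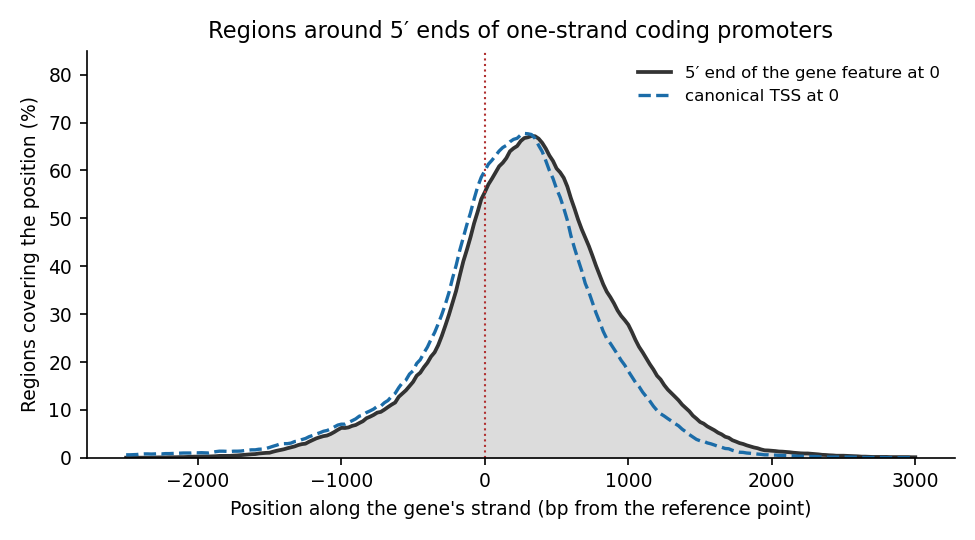
Share of the regions (y axis, %) that cover each position along the strand of the gene (x axis, bp), with the 5′ end of the gene feature at 0 (solid line) or the TSS of the canonical transcript of the same gene at 0 (dashed line). The solid line peaks at 325 bp with 67.2% and the dashed line at 275 bp with 67.7%.

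The shares by position differed with the reference point. A gene feature starts at its outermost annotated transcript, and for 881 of 3173 regions (27.8%) with an annotated canonical transcript, that transcript started more than 100 bp further downstream. At *TRIM8* the canonical TSS lay 1976 bp downstream of the 5′ end, inside a region counted as wholly downstream. Measured from the canonical TSS, 59.97% of the regions covered the start, 22.8% lay wholly downstream and 17.2% wholly upstream, a ratio of 1.33. A canonical TSS lies at or downstream of the outermost base, so this change could only move regions to the upstream side. The window also stayed on the 5′ end of the gene feature. The lower ratio therefore does not show a smaller asymmetry. For the 1604 regions of genes whose canonical TSS is the 5′ end of the gene feature, 66.6% covered it, 26.5% lay downstream and 6.86% upstream, a ratio of 3.86. The median centre was on the downstream side with each reference, at 173 bp from the canonical TSS and at 228 bp for the genes where both coincide.

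Regions that cover the 5′ end were the longest and held the most tags. Their medians were 862 bp, 61 parental tags and 33 EIR tags, against 646 bp, 47 and 27 tags for downstream regions and 500 bp, 30 and 15 tags for upstream regions. Per length, covering and downstream regions had similar medians (69.8 and 68.0 parental tags per kb, 26.7 and 27.9 scaled EIR tags per kb), and upstream regions were lower in both libraries (50.4 and 19.1). The median fold was 2.56 for covering, 2.41 for downstream and 2.73 for upstream regions. In the class of 60 to 99 parental tags the order differed, with 2.45, 2.19 and 2.03, and upstream regions were few there (32 of 838). GC content separated the upstream regions, at a median of 53.4% against 73.7% for covering and 71.1% for downstream regions. The share of regions at a CpG-rich promoter, defined by at least 55% GC and a CpG observed over expected ratio of at least 0.6 in the 1 kb around the 5′ end, was 95.7% for covering, 74.3% for downstream and 77.4% for upstream regions.

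**Figure D4:**
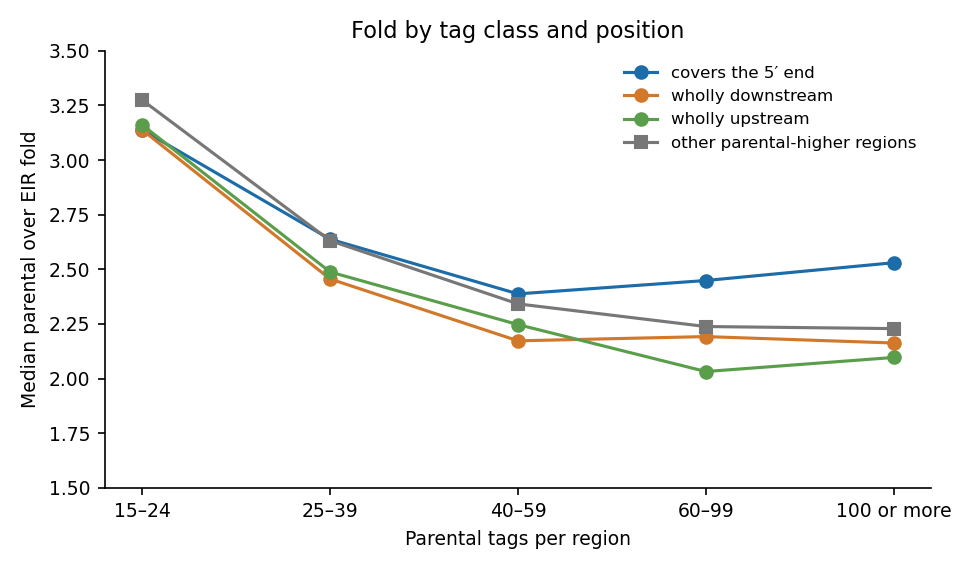
Median parental over scaled EIR fold (y axis) by class of parental tags (x axis) for regions that cover the 5′ end, lie wholly downstream or lie wholly upstream, and for all other parental-higher regions. Medians are over 3 at 15 to 24 tags. For covering regions they are 2.39 at 40 to 59 tags and 2.53 at 100 tags or more, and for downstream regions 2.17 and 2.16.

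Exon 1 of the canonical transcript was overlapped by 73.5% of the regions, and the first coding base was covered by 45.4%. Among wholly downstream regions these shares were 64.8% and 38.0%. The median length over all regions was 768 bp. Regions of exactly 500 bp, the shortest in the list, made up 27.8%, and 27.2% were longer than 1 kb, so that the regions together covered 2.76 Mb. The share covering the 5′ end rose with length, from 34.3% at 500 bp to 56.8% for longer ones up to 1 kb and 74.9% above 1 kb. The longest region, 3686 bp, belonged to *ASXL1*, a Polycomb-associated chromatin gene, and lay wholly upstream with 150 parental and 93 EIR tags. Next came *ZBTB7A*, *WNT5A* (a Wnt ligand gene, 168 and 107 tags), *FOXO1* and *YWHAZ* (a 14-3-3 gene, 208 and 139 tags). At the edge of the 1 kb window the regions just inside, 998 bp from the 5′ end, were those of *IL17RC* (105 and 61 tags), *MED24* (30 and 13) and *HILPDA* (19 and 9). Just outside, at 1002 or 1003 bp, lay those of *BOC* (33 and 18), *ST3GAL1* (120 and 94) and *CLASP1* (24 and 12).

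Most regions belonged to 1 gene and most genes to 1 region. A single coding gene was near 3110 regions, 66 regions had 2 and 2 regions had 3. Of the 3182 coding genes reached, 66 had 2 regions, and in 45 of these 1 region lay wholly upstream and the other wholly downstream, with a median gap of 888 bp. At *RHEB*, the small GTPase that activates mTORC1, the upstream region held 75 parental and 56 EIR tags and the downstream region 105 and 61. At *NPTX1*, a neuronal pentraxin gene, these were 32 and 15 upstream and 117 and 41 downstream. *CTBP2* (32 and 18 upstream, 142 and 82 downstream), *C10orf67* (35 and 19, 137 and 111) and *NFAT5* (27 and 13, 129 and 71) were the other pairs with the most tags. The downstream region had more parental tags per kb in 31 of 45 pairs, and the upstream region had the larger fold in 30 of 45. Fold and tags both selected the regions, with a lowest fold of 2.52 at 15 to 24 parental tags and 1.49 at 100 or more. The part of tag number in these counts was not tested.

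Promoters with coding 5′ ends on both strands offered a comparison of position, which the rule did not fix beyond the window. There 63.3% of 289 regions covered a coding 5′ end, and the one-strand share differed from it by -7.85 percentage points (95% Newcombe interval -13.5 to -1.90, regions treated as independent draws). The interval included 0 when distance was taken from the centre of the region (-4.89, -10.8 to 1.51), with a fold of at least 2 (-5.49, -11.5 to 0.881) and with a fold of at least 4 (-15.8, -30.1 to 9.94). At exactly 500 bp the one-strand and both-strand shares were 34.3% and 32.9%. They were 56.8% and 67.3% for longer regions up to 1 kb, and 74.9% and 89.4% above 1 kb. A region at a both-strand promoter has at least 2 coding 5′ ends that it can cover, so the groups were not on equal terms. Levels were close, with 66.7 parental and 25.9 scaled EIR tags per kb and a median fold of 2.49 at both-strand promoters.

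A noncoding 5′ end on the other strand lay within 1 kb of 818 regions (25.7%, 24.2 to 27.3), and for 771 of them a lncRNA gene was among these. Noncoding genes were not part of the rule. The share over all coding promoters is not given, so 25.7% is not read as a trait of these regions. Regions with such a partner were wholly downstream more often, by 4.87 percentage points (95% Newcombe interval 1.07 to 8.73), while the differences in covering (-2.93, -6.89 to 1.02) and upstream regions (-1.94, -4.08 to 0.451) had intervals that include 0. Their median fold was 2.43, beside 2.55 for the 2360 regions without a partner.

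Of 20098 protein-coding genes outside chromosomes Y and M, 3182 (15.8%, 15.3 to 16.3) had such a region. The share was 26.3% of the 10475 CpG-rich promoters and 4.45% of the 9623 others, so that 86.5% of the reached genes were CpG-rich against 52.1% of all coding genes. The 1 kb around the 5′ end had a median GC content of 68.4% in the reached genes, 64.8% in all CpG-rich genes and 59.2% in all coding genes. Within 100 bases before and 30 after the 5′ end, the GC box letters were present in 64.8% of reached genes (63.1 to 66.4) and 40.7% of all coding genes. Among CpG-rich promoters these shares were 71.2% and 63.2%. ETS letters went the other way, at 6.61% of reached CpG-rich promoters (5.74 to 7.60) and 12.2% of all CpG-rich promoters. TATA box letters were found in 1.26% of reached genes and 2.84% of all coding genes, but in 1.02% and 1.19% of the CpG-rich ones. The shares of CCAAT (20.0% and 21.8%), NRF1 (2.55% and 2.65%), CRE (2.14% and 1.78%), AP-1 (1.63% and 2.79%) and YY1 letters (3.46% and 2.68%) in reached and all coding genes differed by less than 2 percentage points each. Among CpG-rich promoters, reached genes were lower than the other genes in CCAAT letters by a difference of -3.39 points (-5.14 to -1.59) and in NRF1 letters by one of -1.43 points (-2.17 to -0.617), while the intervals for CRE, AP-1 and YY1 letters included 0. GC content differed between these gene sets, and its part in the motif shares was not tested.

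Polycomb, immediate early, Hippo, SWI/SNF, ubiquitin enzyme and histone-modifying enzyme genes had the highest shares of the gene classes, and olfactory receptors, keratins, respiratory chain subunits and proteasome subunits the lowest. The classes are lists of symbols that differ in promoter type, and each share is read beside the 15.8% of all coding genes. For some, a share is also given within CpG-rich promoters without a coding 5′ end on the other strand within 1 kb. It is read beside the 32.3% (31.3 to 33.3) of all 8459 such promoters.

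Polycomb and H3K27 demethylase genes had the highest share, 13 of 29 (44.8%, 28.4 to 62.5), and 11 of 22 (30.7 to 69.3) among CpG-rich promoters without an opposite coding gene, an interval that includes 32.3%. *EZH2*, the H3K27 methyltransferase that GSK126 inhibits, had 136 parental tags and 60 EIR tags, a fold of 3.09 (2.27 to 4.26). *BMI1*, a PRC1 component, had 131 and 77 tags, and *PCGF6*, a related ring finger gene, had 122 and 78. The highest fold of the class was 3.74 at *PCGF5* (118 and 43 tags), and *CBX2*, a reader of H3K27 methylation, had 80 and 33 tags. *JARID2* and *MTF2*, which encode accessory subunits of PRC2, had regions wholly upstream (74 and 29 tags, 27 and 11 tags), and *MTF2* also had 1 downstream.

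SWI/SNF subunit genes had a region in 12 of 32 cases (37.5%, 22.9 to 54.7), and in 10 of 24 (41.7%, 24.5 to 61.2) of that CpG-rich subset, where the interval again includes 32.3%. The gene of the precipitated protein, *SMARCA4*, had a region covering its 5′ end from -173 to 781 bp, with 83 parental and 37 EIR tags and a fold of 3.06 (2.05 to 4.64). *ARID2*, a subunit of the PBAF form, had 134 parental and 112 EIR tags, and its fold of 1.63 was the lowest of the class. *SMARCD2* (117 and 72 tags) and *BICRAL* (103 and 65) followed. *BRD7*, another PBAF subunit gene, had the highest fold of the class, 3.57, on 34 and 13 tags. *ARID1A*, which is mutated in this line, had 27 and 16 tags wholly downstream, and its paralog *ARID1B* had 65 and 34. The range of folds in the class, 1.63 to 3.57, spanned the median of all regions.

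Immediate early and AP-1 genes had a region in 10 of 24 cases (41.7%, 24.5 to 61.2), led by the phosphatase gene *DUSP1* (139 and 102 tags) and by *JUND* (130 and 74) and *IER5* (118 and 70). *MYC* had an upstream region of 30 and 17 tags. In the CpG-rich subset the share was 9 of 20 (25.8 to 65.8). Hippo pathway genes had 9 of 23 (39.1%, 22.2 to 59.2). *TEAD4*, a DNA-binding partner of YAP1, had 164 and 84 tags, *TEAD1* had 116 and 45, the kinase gene *LATS2* had 149 and 99, and *YAP1* itself had 95 and 59. The CpG-rich subset held 8 of 16 (28.0 to 72.0), and the intervals of both classes there include 32.3%. For ubiquitin enzymes the share was 42 of 116 (36.2%, 28.0 to 45.3), with *OTUD1*, *CUL1* (196 and 134 tags) and *USP24* (116 and 67) holding the most tags. In the CpG-rich subset it was 37 of 76 (48.7%, 37.8 to 59.7), above 32.3%.

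Histone methylation and acetylation enzymes had 30 of 84 (35.7%, 26.3 to 46.4), of which *KATNAL2* and *KATNBL1* are katanin genes caught by the symbol pattern. *KDM7A*, a demethylase gene, had 147 and 65 tags, *BRD1* had 130 and 81, and the acetyltransferase gene *CREBBP* had 128 and 61. *KMT2B* (44 and 9 tags, a fold of 6.67) and *HDAC7* (19 and 4 tags, 6.48) had the largest folds after *HDAC4*. In CpG-rich promoters without an opposite coding gene the share was 26 of 46 (56.5%, 42.2 to 69.8). Homeobox and other developmental factors had 48 of 195 (24.6%, 19.1 to 31.1), and in that CpG-rich subset 43 of 125 (34.4%), near the 32.3% of all genes there. Besides *FOXO1*, the Krüppel-like factor genes *KLF13* (158 and 72 tags) and *KLF3* (126 and 71) led this class.

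**Figure D5:**
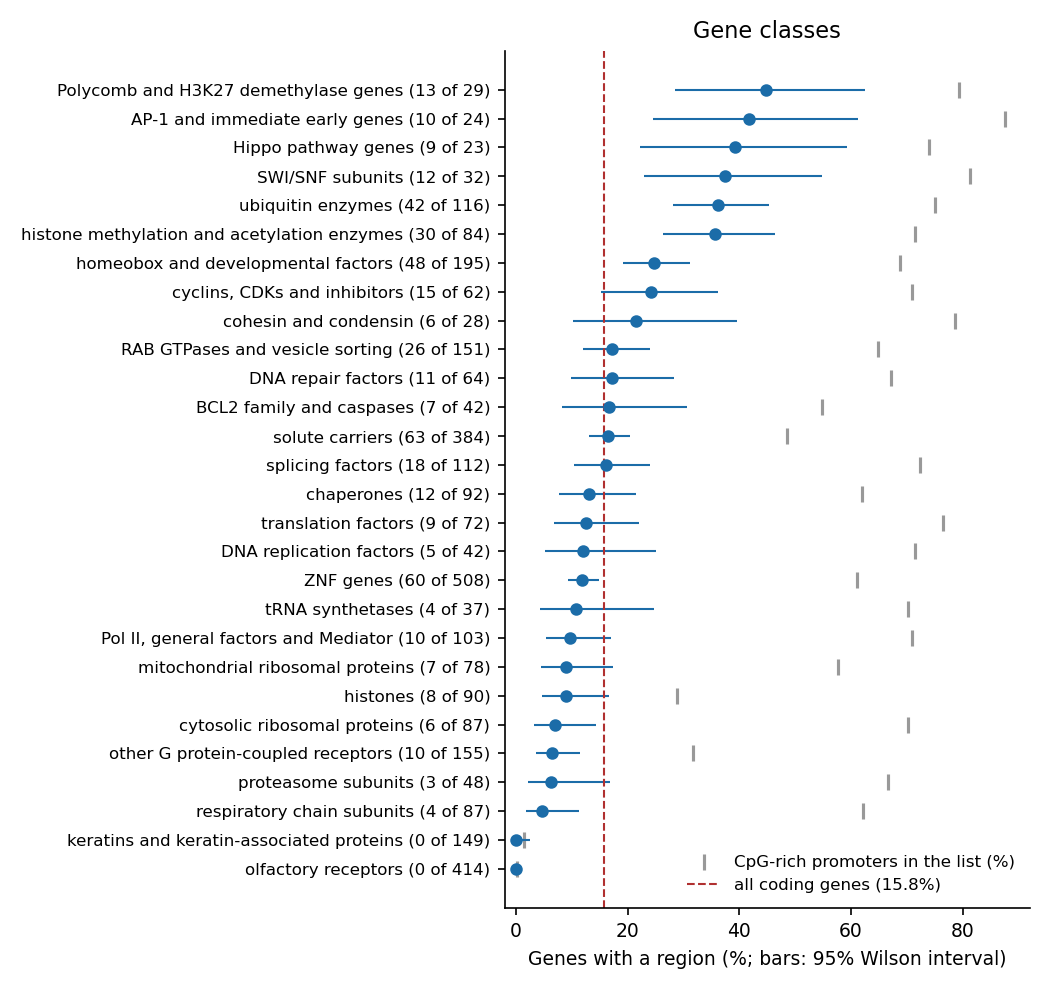
Share of the protein-coding genes of each class with a one-strand promoter region (x axis, %, points with 95% Wilson intervals), the share of its promoters that are CpG-rich (grey ticks) and the share over all coding genes (dashed line, 15.8%). Polycomb genes are highest (13 of 29) and keratins and olfactory receptors have none.

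Several classes lay near the share of all coding genes. Cyclins, CDKs and their inhibitors had 15 of 62 (24.2%), with 120 and 46 tags at *E2F5*, and cohesin and condensin genes had 6 of 28 (21.4%), with 104 and 63 at *STAG1*. RAB GTPases and vesicle sorting genes had 26 of 151 (17.2%), led by *SEC24B* with 142 and 74 tags, and DNA repair factors 11 of 64 (17.2%). Solute carriers had 63 of 384 (16.4%), with 162 and 114 tags at *SLC7A6*, and splicing factors 18 of 112 (16.1%), with 78 and 49 at *RBM17*. The BCL2 family and caspases had 7 of 42 (16.7%, 8.32 to 30.6). In that class *BID*, a BH3-only gene, had 90 and 46 tags, *BCL2*, the founding inhibitor of apoptosis, had 89 and 33 (a fold of 3.68, 2.44 to 5.67), and *BIK* had 76 and 54.

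At the lower end, respiratory chain subunits had 4 of 87 (4.60%, 1.802 to 11.2), the proteasome 3 of 48 (6.25%, 2.15 to 16.8) and cytosolic ribosomal proteins 6 of 87 (6.90%, 3.20 to 14.2). These promoters are mostly CpG-rich, at 62.1%, 66.7% and 70.1%. In CpG-rich promoters without an opposite coding gene the shares were 3 of 32 (3.24 to 24.2), 3 of 22 (4.75 to 33.3) and 4 of 47 (3.36 to 19.9), so that the interval of the proteasome alone includes 32.3%. The median parental tags of the regions found there were 32.5, 26 and 27.5, against 52 over all regions. *ATP5F1D*, an ATP synthase gene, had 87 and 50, *RPS27L* had 48 and 30, and the proteasome gene *PSMD5* had 26 and 10. ZNF genes had 60 of 508 (11.8%, 9.29 to 14.9), led by *ZNF710* with 129 and 58 tags, and 17.7% (13.6 to 22.7) in the CpG-rich subset. Mitochondrial ribosomal proteins had 7 of 78 (8.97%), tRNA synthetases 4 of 37 (10.8%), translation factors 9 of 72 (12.5%), RNA polymerase II, general factors and Mediator 10 of 103 (9.71%), DNA replication factors 5 of 42 (11.9%) and chaperones 12 of 92 (13.04%). Among the chaperones the gene with the most tags, *HSPG2* (99 and 36), encodes the matrix proteoglycan perlecan and was caught by its symbol. Histone genes had 8 of 90 (8.89%, 4.57 to 16.6), and the macroH2A variant genes *MACROH2A2* (157 and 93 tags) and *MACROH2A1* (77 and 51) held the most tags there.

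Among receptor genes, 10 of 155 other G protein-coupled receptors (6.45%, 3.54 to 11.5) had a region, with 89 and 49 tags at *GPR161* and 85 and 14 at the adrenergic receptor gene *ADRA2C*, a fold of 8.28 (4.68 to 15.8). None of 414 olfactory receptor genes had one, with an upper Wilson limit of 0.919%, and none of 149 keratin and keratin-associated genes did, with a limit of 2.51%. CpG-rich promoters are rare in both classes, 1 of 414 and 2 of 149.

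The share of coding genes reached differed between chromosomes. It was 26.3% on chromosome 18 (69 regions) and 26.01% on chromosome 10 (196 regions), and lowest on chromosome 19 (11.5%) and X (6.90%). Regions on chromosome 10 had more tags per kb in both libraries, 78.6 parental and 36.8 scaled EIR tags per kb, against 66.9 and 25.9 elsewhere, and a lower median fold, 2.22 (2.17 to 2.34) against 2.53 (2.505 to 2.57). Among regions of 60 to 99 tags the medians were 1.96 and 2.40. *TRIM8*, *PIP4K2A*, *PDLIM1* and *OTUD1*, 4 of the 10 regions with the most parental tags, lie on chromosome 10. Without chromosome 10 the share of coding genes reached was 15.4%.

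EIR-higher regions were rare at the same genes, as they were at all coding genes. Of the 3182 genes, 24 (0.754%, 0.507 to 1.12) also had an EIR-higher region within 1 kb, where 0.97% of all coding genes had one, and 13 of the 3178 regions (0.409%) shared a base with an EIR-higher region. At *UST*, a sulfotransferase gene, the parental-higher region held 32 parental and 19 EIR tags and covered the 5′ end, while the EIR-higher region, 291 to 1047 bp downstream, held 58 EIR and 21 parental tags. *PFKL*, the liver-type phosphofructokinase gene, had 35 and 13 tags in the parental-higher region and 33 EIR and 7 parental tags in the EIR-higher region upstream. At *XKR4* these were 71 and 38, and 54 and 17, at *MCRIP1* 63 and 40, and 40 and 13, and at *CEP170B* 66 and 37, and 38 and 11. The EIR-higher region lay wholly upstream of the 5′ end in 10 of the 24 genes, wholly downstream in 8 and covered it in 6.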

How the data were processed

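SMARCA4 ChIP-seq was analysed in 1 parental and 1 EIR library, grouped by the sample labels. Single-end reads of 75 bp had been aligned by the authors to hg19 with Bowtie 0.12.9, and HOMER in its histone style called regions in each library with the other as control, at an FDR of 5%. The deposited parental-higher list gives whole tag counts per region in the parental library. The deposited signal of the other library is scaled to the parental total, and a normalized signal per 10000000 tags is given. Deposited folds, p-values and scores were not used.

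Whole EIR tags were recovered from the steps of the scaled values: 98.7% of 75 distinct values from 5 to 60 were whole multiples of 0.733 within 0.05. Folds are parental tags over scaled EIR tags, with 3 tags in place of 0. Regions were joined to the 5′ ends of GENCODE 44 gene features on GRCh37. The members, gene lists, motifs and alternatives were chosen with earlier results of these data known. The canonical TSS, the GC classes and the promoters without an opposite coding gene were added after values were seen. Named regions are the 10 with the most parental tags, the 10 with the largest fold, the 5 longest, those at the window edge, up to 3 per gene list, the 5 flanking pairs with the most tags, the 5 genes with the most tags in an EIR-higher region, and *SMARCA4*. Other named genes were chosen after their values were seen. Not every gene that this rule names is reported here.

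Shares have Wilson intervals, differences of shares Newcombe intervals, medians order-statistic intervals and folds exact Clopper-Pearson intervals, all at 95%. They treat regions or genes as independent draws, and those of folds cover counting error only. No test was made of the contrast that selected the regions. Region classes and intervals were checked on simulated data. Python 3.11.15 with numpy 2.4.6, pandas 2.3.3, scipy 1.17.1 and matplotlib 3.10.9 was used. Alternatives were a window of 500 bp, other reference points, minimum folds of 2 and 4, another scaling, an exact binomial test, autosomes, overlaps, merging and a pseudocount of 1 tag. The exclusions of chromosome 10 and of regions of 75% GC or more, and the Poisson p without rescaling, were chosen after seeing the data.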

Additional observations from a re-analysis of the deposited data

Results flagged for a closer look

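Within 1 kb of their 5′ ends, 24 coding genes had both a parental-higher region described above and a region of the EIR-higher list, which the comparisons of position and gene class do not use. The share, 0.754% of 3182 genes, lay beside 0.97% of all coding genes. The difference was not tested.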

How the results depend on the processing

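Of 144 values recomputed under alternatives, 89 stayed within the interval of the reported value (for the number of regions, within 1.5 times) and 55 moved. The 89 include 11 values each for the exact binomial test and for the Poisson p without rescaling. Both settings reuse the tags that selected the regions and kept every region, so these values could not move. None of the 144 changed sign, but only the difference from both-strand promoters could, since counts, shares, folds, levels and GC are never negative. With a window of 500 bp, 64.0% of the regions covered the 5′ end, 28.4% lay downstream and 7.58% upstream, 14.1% of coding genes were reached, 21.8% of the regions had a noncoding partner, GC was 72.6%, and the levels were 68.9 parental and 27.01 scaled EIR tags per kb. With the TSS of any coding transcript as reference these shares by position were 71.3%, 17.4% and 11.3%, with 19.6% of genes, a GC of 71.0% and 64.1 and 24.9 tags per kb. Measured from the centre of the region they were 61.4%, 29.9% and 8.71%, with 14.6% of genes, 22.3% with a partner and a GC of 72.5%.

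A fold of at least 2 gave a median fold of 2.67, 62.7 and 23.5 tags per kb and 13.3% of genes. A fold of at least 4 left 265 regions, with 64.2% covering, 26.04% downstream, a median fold of 4.91, 47.2 and 9.37 tags per kb, 1.35% of genes, 22.6% with a partner, a GC of 75.7% and a difference from both-strand promoters of -15.8 points (-30.1 to 9.94). With EIR tags multiplied by 1.5 and a Poisson p of at most 1e-04, 1167 regions remained, with 70.3% covering, 25.02% downstream, 4.71% upstream, a median fold of 2.09, 69.98 and 33.4 tags per kb, 5.87% of genes, a GC of 74.1% and a difference of -14.8 points. The same Poisson p without the factor, an alternative added after seeing these values, kept all 3178 regions. Merged regions covered the 5′ end in 57.5% and lay upstream in 8.47%. A pseudocount of 1 tag gave a median fold of 2.47.

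Without regions of 75% GC or more, 49.1% covered, 37.9% lay downstream and 12.98% upstream, the median fold was 2.43, the scaled EIR level 27.5 tags per kb, GC 69.1% and 11.2% of genes were reached. Autosomes, the exclusion of overlaps and the exclusion of chromosome 10 left every value within its interval. The exact binomial test at an adjusted p under 0.05 and the Poisson p without the factor kept all 3178 regions. Every value was therefore unchanged under them. Both reuse the tags that selected the regions, so neither is a check on that selection. No paired analysis was possible because each condition had 1 library and no result comes from a test across samples.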
